A study of Mus musculus with 84 samples.

Results

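The 32 genes described here are genes that the cells lining blood and lymph vessels are known for. They were taken by name out of 21851 protein-coding genes, and all 32 had a promoter window on mouse build GRCm38. A window ran 2000 bp to either side of each annotated transcription start site (TSS) of a gene. It measured 4001 bp for a gene with 1 TSS, such as Cdh5, and 16107 bp for Erg, which has 6. The genes were followed in nuclei labelled as adipocytes. Male AdipoERCre x NuTRAP mice, in which tamoxifen switches on a biotin and GFP label under an adipocyte-driven Cre, gave epididymal fat, and CUT&Tag was run on the labelled nuclei for H3K4me3 (21 libraries), H3K27ac (21), H3K4me1 (22) and H3K27me3 (20). In CUT&Tag an antibody against a histone mark tethers a transposase, which cuts the DNA nearby and adds sequencing adapters.

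All 8 diet groups carried the transgenes and had received tamoxifen. C mice ate chow to 18 weeks of age, and H mice of that age had 12 weeks of high-fat diet (HFD). CC_s mice ate chow to 26 weeks, and HC mice of that age had 12 weeks of HFD followed by 8 weeks of chow, the weight loss arm. In the longer cohort, CC_l mice ate chow to 31 weeks and HH mice of that age had 25 weeks of HFD, while CCC mice ate chow to 39 weeks and HHC mice of that age had 25 weeks of HFD followed by 8 weeks of chow. Each group held 2 or 3 libraries per mark. In 4 H3K4me3 libraries (CC_l replicate 2, HH replicates 2 and 3, and CCC replicate 3) title and treatment field give different diet groups. The titles were used. By the treatment field, HH would be made of CC_l replicate 2 and CCC replicate 3, CC_l of CC_l replicate 1 and HH replicate 3, and CCC of CCC replicate 1 and HH replicate 2. H3K4me3 results of the longer cohort are therefore given under both readings. Values below follow replicate order; the HH libraries for H3K4me3 and H3K27me3 are replicates 2 and 3, and the CCC libraries are replicates 1 and 3 for every mark.

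Endothelial cells keep their identity through ETS and SOX transcription factors such as Erg, Sox7, Sox17 and Sox18, and sense growth factors through the receptors Kdr, Flt1, Flt4, Tek and Tie1. They hold to each other with junction proteins such as Cdh5 and Cldn5. In fat, capillary endothelium also brings lipoprotein lipase to the vessel wall through Gpihbp1. H3K4me3 marks promoters of active or poised genes, H3K27ac active promoters and enhancers, H3K4me1 enhancers and promoter flanks, and H3K27me3 is laid down by Polycomb at silenced genes, including genes of other lineages. A promoter holding both H3K4me3 and H3K27me3 is often called bivalent.

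A promoter was called marked in a library when a peak overlapped its window by at least 1 bp, and its coverage is the percent of the window under peaks. Peaks had been called in each library on its own, so a missing peak shows that a site did not reach that library's threshold, and not that it lacked the mark. Lists held 11249 to 46397 peaks. Across libraries of a mark, the percent of all coding promoters marked ran from 41.8% to 66.0% for H3K4me3, 17.7% to 55.1% for H3K27ac, 6.09% to 51.4% for H3K4me1 and 10.3% to 27.1% for H3K27me3. H3K4me3 H replicate 3 had the shortest list and marked 1 of the 32 genes. H3K27ac H replicate 3 (12174 peaks) and CCC replicate 3 (17.7% of coding promoters) were also low. Of 10 adipocyte genes, 7 to 10 were marked by H3K4me3 in every library, and by H3K27ac 7 to 10. Most adipocyte promoters thus carried both marks in every library.

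The bases upstream of 6 of the genes are shown because the results turn on their promoters: Adgrl4 and Emcn for H3K4me3, Kdr for H3K4me1, Cldn5 and Robo4 for H3K27me3 in opposite directions, and Erg as a gene with H3K27me3 in every library. The sequences are from RefSeq on build GRCm38.p6, are written 5′ to 3′ on the gene's strand and stop before the first annotated transcribed base. Capitals mark the ETS-type letters AGGAAG on either strand.
Adgrl4, chr3:151437632-151437881, plus strand: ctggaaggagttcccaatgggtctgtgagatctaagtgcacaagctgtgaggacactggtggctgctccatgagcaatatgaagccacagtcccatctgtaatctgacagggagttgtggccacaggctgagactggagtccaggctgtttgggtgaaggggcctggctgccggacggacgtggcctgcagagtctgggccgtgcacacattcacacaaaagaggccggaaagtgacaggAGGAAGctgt
Emcn, chr3:137340828-137341066, plus strand: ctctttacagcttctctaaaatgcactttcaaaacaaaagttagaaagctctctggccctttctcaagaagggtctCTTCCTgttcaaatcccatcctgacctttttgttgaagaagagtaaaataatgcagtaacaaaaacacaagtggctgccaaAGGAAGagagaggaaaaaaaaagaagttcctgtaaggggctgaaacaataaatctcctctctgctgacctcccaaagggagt
Kdr, chr5:75978459-75978705, minus strand: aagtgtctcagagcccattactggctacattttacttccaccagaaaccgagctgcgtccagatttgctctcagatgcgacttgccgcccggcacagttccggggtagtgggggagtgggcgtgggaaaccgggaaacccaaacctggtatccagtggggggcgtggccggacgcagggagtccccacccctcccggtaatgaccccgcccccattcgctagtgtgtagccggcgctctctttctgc
Cldn5, chr16:18776597-18776846, plus strand: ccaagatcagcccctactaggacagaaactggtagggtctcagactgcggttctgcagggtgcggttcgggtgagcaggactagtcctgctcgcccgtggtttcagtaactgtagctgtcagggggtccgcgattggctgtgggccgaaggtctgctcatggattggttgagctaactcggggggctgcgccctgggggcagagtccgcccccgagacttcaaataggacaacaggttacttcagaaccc
Robo4, chr9:37401722-37401896, plus strand: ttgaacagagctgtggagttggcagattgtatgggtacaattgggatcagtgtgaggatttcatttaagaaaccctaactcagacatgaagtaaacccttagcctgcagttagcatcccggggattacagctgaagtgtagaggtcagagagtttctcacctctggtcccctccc
Erg, chr16:95586594-95586843, minus strand: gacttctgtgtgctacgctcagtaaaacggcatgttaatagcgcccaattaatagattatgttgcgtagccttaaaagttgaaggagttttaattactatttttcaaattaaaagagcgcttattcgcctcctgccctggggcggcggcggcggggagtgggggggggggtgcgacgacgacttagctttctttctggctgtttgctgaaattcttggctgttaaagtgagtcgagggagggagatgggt
Promoter entries (250 bases before to 50 after the TSS) matched 16 of the 32 genes. The letters AGGAAG were found on either strand in 50% of those 16 entries and in 35.4% of the 32851 entries used. The SOX-type letters ACAATG were found in 6.25% against 12.6%, and TATAAA in 12.5% against 13.6%. Among the 6 shown, Adgrl4 held AGGAAG close to its TSS and Emcn held it on both strands, while the printed bases of Kdr, Cldn5, Robo4 and Erg held none. The promoter entry of Robo4 held it at 1 place outside the printed bases. The median CpG ratio (observed over expected) was 0.294 for the 16 and 0.384 for all entries. It was 0.941 for Erg, 0.807 for Prox1, 0.780 for Flt1, 0.702 for Flt4 and 0.689 for Kdr, against 0.106 for Robo4, 0.149 for Tek and 0.159 for Emcn. Genes with H3K27me3 in every library (Erg, Flt4 and Prox1 of those with an entry) were at the high end of that range. Robo4, which lost the mark in the shorter cohort, was at its low end, although it was marked in 10 of 10 chow control libraries. Sox17, also marked in every library, and S1pr1, Cdh5 and Sox18, which also had lower coverage, had no entry. These are descriptions of letters in a window, with no test.

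By the titles, H3K4me3 was present at more of the 32 promoters after 25 weeks of HFD than in chow controls of the same age, and by the treatment field at fewer. HH libraries marked 28 and 30 of the 32 genes, and CC_l libraries 22 and 15. After weight loss, HHC libraries marked 17, 26 and 28, and CCC libraries 16 and 18. The HH and CC_l counts did not overlap, and 1 HHC library lay between those of its controls. In percent, the genes marked were 90.6% ± 4.42 (SD, n = 2) in HH and 57.8% ± 15.5 (n = 2) in CC_l, while all coding promoters stood at 63.5% and 62.8%. With the 4 libraries grouped by their treatment field, the HH minus CC_l difference turned from 10.5 genes to -9.5, and the HHC minus CCC difference went from 6.67 genes to 1.67.

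In the shorter cohort the libraries of a group differed more. C libraries marked 11, 17 and 19 of the genes and H libraries 25, 19 and 1, the last being the library with the shortest list. CC_s libraries marked 3, 4 and 8, and HC libraries 11, 7 and 24. H and C overlapped fully, and 1 HC library lay below the highest CC_s library.

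**Figure D1:**
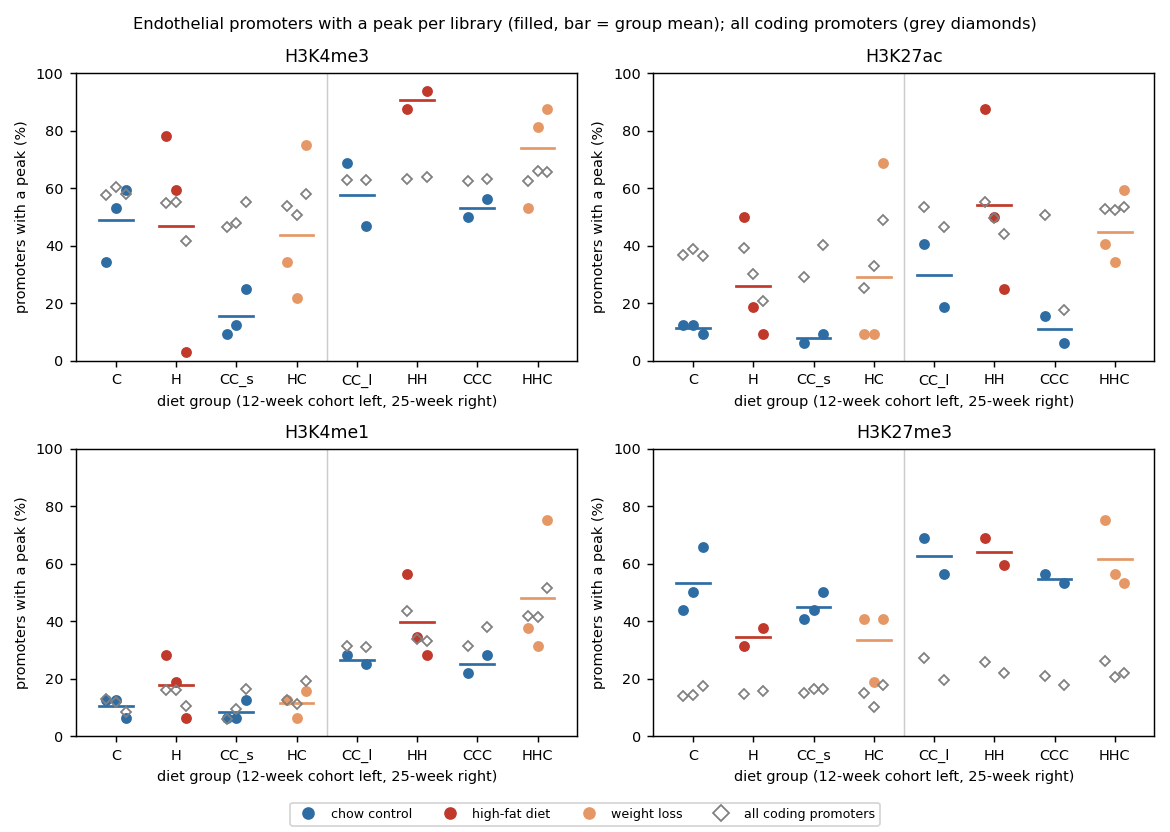
Percent of the 32 endothelial genes with a peak in the promoter window in each library, by mark and diet group, with group means as bars and all coding promoters as grey diamonds. For H3K4me3 the HH libraries stand at 28 and 30 genes and the CC_l libraries at 22 and 15, while the grey diamonds of both groups lie near 63%.

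By the rule that every library of one group and no library of the other holds a peak, 6 of the 32 genes gained H3K4me3 in HH against CC_l, where 1.32% of all coding genes did, and 0 lost it (0.481% of all). The 6 were Tie1, Adgrl4, Emcn, Gpihbp1, Ptprb and Aplnr. In HHC against CCC, Pecam1, Cdh5 and Adgrl4 gained the mark (3 genes; 1.39% of all) and 0 lost it (0.375%). In HC against CC_s, S1pr1 gained it (0.320% of all) and 0 lost it (0.0183%). In H against C, 0 gained it (0.00458%), and Prox1 lost it (1.71%). The HH count became 14 without CC_l replicate 1, and the HHC count 7 without HHC replicate 1. The HC count was 5 without HC replicate 2 and 2 without HC replicate 1 or CC_s replicate 3, and the H count 5 without H replicate 3 (4 gained and 1 lost) and 2 without C replicate 1. When each list was cut to the same number of peaks, the HH and HHC counts were 1 each.

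Grouped by the treatment field, none of these HH and HHC gains remained. In HH against CC_l, 0 of the 32 genes gained H3K4me3 (0.636% of all genes) and 4 lost it (0.508%), namely Cdh5, Tek, Erg and Robo4. In HHC against CCC, 0 gained (0.426%) and 0 lost it (0.146%). Every gene said below to stand higher in HH than in CC_l, or in HHC than in CCC, without overlap for H3K4me3 does so by the titles, and none of them does by the treatment field.

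**Figure D2:**
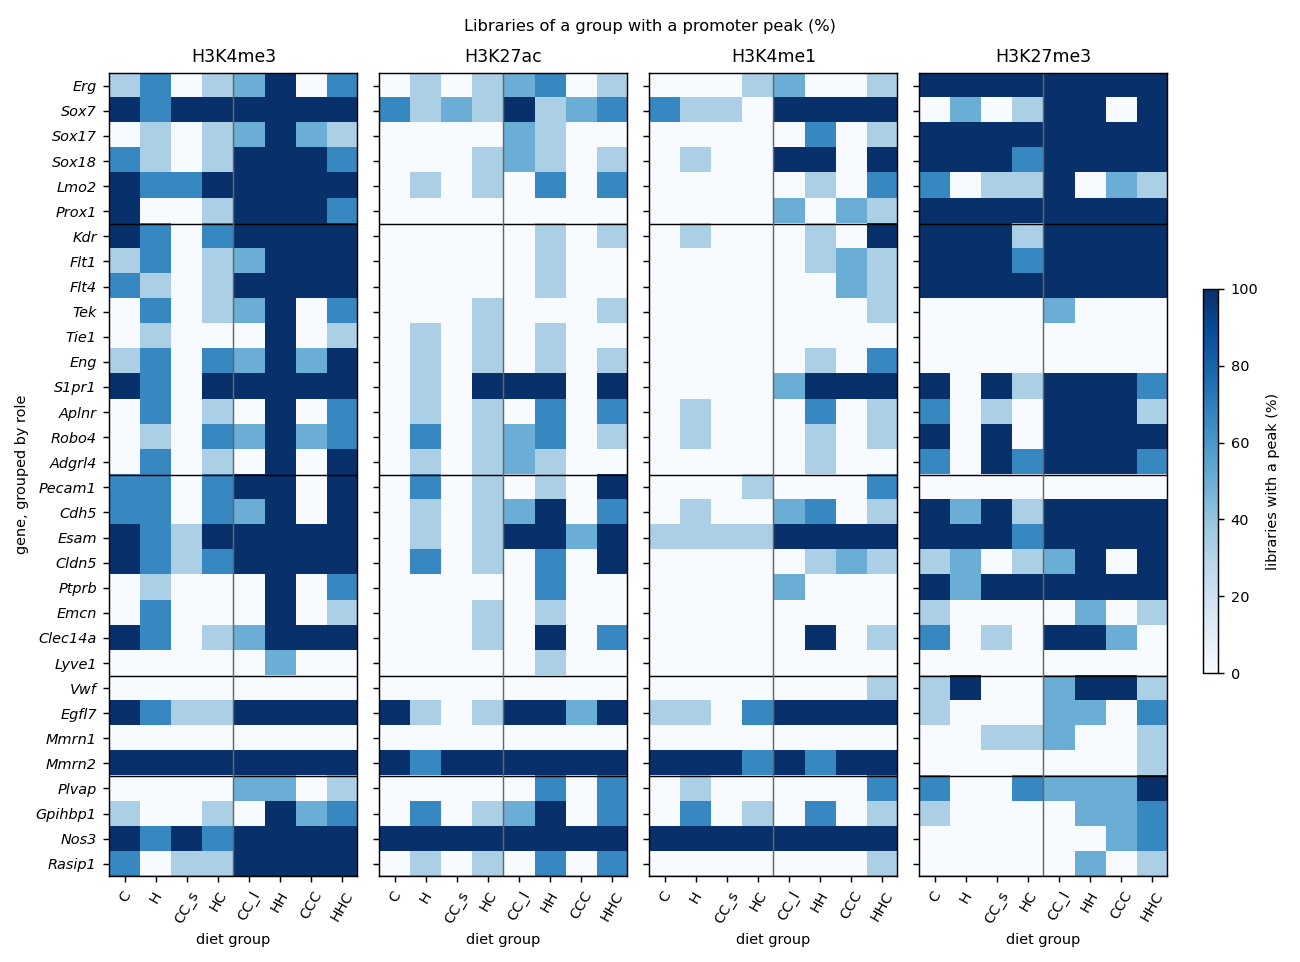
Percent of the libraries of a diet group (horizontal axis, 1 panel per mark) with a peak at each of the 32 promoters (vertical axis, grouped by role), from white at 0% to dark blue at 100%. Mmrn2 is dark for H3K4me3 in all 8 groups, as are Erg, Flt4, Prox1 and Sox17 for H3K27me3, while Tie1, Adgrl4 and Emcn are white for H3K4me3 in every chow group.

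Tie1, an orphan receptor that works with the angiopoietin receptor Tek, had H3K4me3 over 56.3% and 48.8% of its window in HH and over 0% in both CC_l libraries. Coverage was 0% in all 3 C, 3 CC_s, 3 HC and 2 CCC libraries, 13.8%, 0% and 0% in H, and 0%, 0% and 20.9% in HHC. The HH libraries were far above every other library. Coverage was compared by limma over 15907 genes, with differences averaged over both cohorts for HFD against chow (H minus C and HH minus CC_l) and for weight loss against chow (HC minus CC_s and HHC minus CCC). For HFD, Tie1 rose by 28.6 ± 4.01 points (SE; limma, Benjamini-Hochberg adjusted p = 0.00339), and the call held in all 21 omissions of a library. The exact permutation p, two-sided and with labels exchanged within cohorts, was 0.167. Under the treatment field the difference was -9.9 points, and over all other settings tried the adjusted p ran from 0.000656 to 0.651.

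Adgrl4, an adhesion receptor of angiogenic endothelium, had H3K4me3 over 11.2%, 34.2% and 0% of its window in H, 49.5% and 44.3% in HH, 0%, 0% and 24.1% in HC, and 37.7%, 70.9% and 44.1% in HHC. All 10 chow control libraries were at 0%. The longer cohort therefore separated from its controls in both arms, and the shorter cohort did not. The HFD difference was 31.0 ± 6.80 points (adjusted p = 0.0467) and the weight loss difference 29.5 ± 6.45 points (adjusted p = 0.0219; limma, Benjamini-Hochberg). The exact permutation p was 0.0667 and 0.05. The first call was lost in 15 of 21 omissions of a library (adjusted p 0.0110 to 0.145, the highest without HH replicate 2) and held only without H replicate 3, HC replicate 3, CC_l replicate 2 or any HHC library. The second was lost without any CC_s library, HC replicate 3 or either CCC library (adjusted p 0.00551 to 0.0950). Under the treatment field the differences were -3.49 and 17.1 points, and over other settings the adjusted p ran from 0.00635 to 0.910 and from 0.0192 to 0.796.

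Aplnr, the receptor of the peptide apelin, was covered over 58.8% and 48.9% in HH and over 0% in CC_l. It was at 16.8%, 14% and 0% in H, 0%, 0% and 26.5% in HC, and 0%, 42.5% and 65.0% in HHC, and every chow control library was at 0%. The averaged HFD difference was 32.1 ± 8.52 points (limma, Benjamini-Hochberg adjusted p = 0.107). S1pr1, the receptor for sphingosine 1-phosphate in blood, was covered over 25.9%, 43.1% and 75.5% in C, 77.1%, 91.5% and 0% in H, 30.5% and 51.5% in CC_l, and 100% and 92.6% in HH. It was at 0% in all 3 CC_s libraries and at 34.9%, 21.9% and 51.3% in HC, with 50% and 60.5% in CCC and 100%, 86.6% and 100% in HHC. By the titles S1pr1 was above its controls in every library of HC, HH and HHC. By the treatment field HH was at 51.5% and 60.5% against 30.5% and 92.6% in CC_l, and CCC, at 50% and 100%, overlapped HHC. The averaged differences were 31.7 ± 13.2 points for HFD (adjusted p = 0.372) and 38.2 ± 12.5 points for weight loss (adjusted p = 0.165), neither past the threshold.

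Among surface and junction proteins, Emcn, a sialomucin of capillary and venous endothelium, was covered by H3K4me3 over 16.8%, 39.7% and 0% in H, 51.6% and 31.4% in HH and 0%, 31.4% and 0% in HHC. All HC libraries and all 10 chow controls were at 0%. For HFD it rose by 30.2 ± 6.60 points (limma, Benjamini-Hochberg adjusted p = 0.0465; exact permutation p = 0.0667). The call was lost in 15 of 21 omissions (adjusted p 0.00993 to 0.193, the highest without HH replicate 2) and held only without H replicate 3, CC_l replicate 2, HH replicate 3 or any HHC library. Under the treatment field the difference was 1.56 points, and over other settings the adjusted p ran from 0.0142 to 0.983. Ptprb, a phosphatase that acts on Tek and VE-cadherin, stood at 30.3% and 25.0% in HH, 10.2%, 0% and 0% in H, and 0%, 46.3% and 18.6% in HHC, against 0% in every chow control and every HC library.

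Pecam1 (CD31), an adhesion molecule at endothelial contacts, was covered over 35.8%, 63.2% and 64.0% in HHC and over 0% in both CCC libraries. It was at 67.1% and 73.7% in HH against 9.39% and 26.4% in CC_l, at 6.98%, 40% and 0% in H against 0%, 10.4% and 16.1% in C, and at 4.79%, 0% and 28.4% in HC against 0% in CC_s. The longer cohort did not overlap its controls in either arm. For weight loss it rose by 32.7 ± 7.42 points (limma, Benjamini-Hochberg adjusted p = 0.0257; exact permutation p = 0.0200). The call was lost without any CC_s library, HC replicate 3, either CCC library or HHC replicate 3 (adjusted p over omissions 0.00482 to 0.105). Under the treatment field the difference was 15.9 points, and over other settings the adjusted p ran from 0.00596 to 0.910. The window of Pecam1 overlaps that of Milr1, a gene whose nearest TSS is 598 bp away, so its peaks cannot be assigned to either gene alone. Cdh5 (VE-cadherin), the main adherens junction protein of endothelium, was at 10.4%, 59.4% and 82.0% in HHC against 0% in CCC and at 94.4% and 76.0% in HH against 44.8% and 0% in CC_l. In the shorter cohort it was at 0%, 28.6% and 21.7% in C, 63.9%, 1.77% and 0% in H, 0% in CC_s, and 0%, 25.3% and 39.3% in HC. Its weight loss difference was 36.1 ± 12.9 points (adjusted p = 0.224).

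Gpihbp1, which carries lipoprotein lipase to the capillary lumen, had H3K4me3 over 100% and 86.4% of its window in HH and over 0% in CC_l. It was at 0% in all H libraries and at 0%, 26.8% and 0% in C, so the cohorts parted. HHC libraries stood at 0%, 61.8% and 100%, CCC at 0% and 28.5%, HC at 0%, 0% and 11.4%, and CC_s at 0%. The difference between the cohorts in the HFD effect was 102.1 points for Gpihbp1 (limma, Benjamini-Hochberg adjusted p = 0.0443) and 48 points for Tie1 (adjusted p = 0.00894). By the treatment field it was -20.0 ± 37.1 points for Gpihbp1 (adjusted p = 0.731) and -29.0 ± 17.7 for Tie1 (adjusted p = 0.306). The Tie1 call held in all 21 omissions of a library, and the Gpihbp1 call was lost in 12 of them (highest adjusted p 0.171). By the titles, the median of this cohort difference over all 15907 genes was 24.7 points, and over the 30 fitted endothelial genes 40.6 points. Of the 257 genes past the threshold, 250 were higher in this difference. The part of this genome-wide difference in the 2 calls was not tested. For this cohort difference 1.62% of the fitted genes were past the threshold in the HFD arm, and 2 of the 30 fitted endothelial genes. In the weight loss arm 0 of 30 were, against 0.767% of all genes, with Adgrl4 at 42.9 ± 12.9 points (adjusted p = 0.223) and Pecam1 at 43.3 ± 14.8 points (adjusted p = 0.381).

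Other genes had lower coverage under HFD in the shorter cohort. H3K4me3 coverage over all genes was also lower there, with a median H minus C difference of -15.5 points. Prox1, the master transcription factor of lymphatic endothelium, was at 21.5%, 44% and 27.5% in C and at 0% in all 3 H libraries. It was at 0% in CC_s, 0%, 0% and 11.4% in HC, 33.3% and 74.0% in CC_l, 51.9% and 47.8% in HH, 22% and 42.9% in CCC, and 0%, 57.2% and 40.6% in HHC. The H libraries were below the C libraries, and the longer cohort overlapped. Nos3, the endothelial nitric oxide synthase, was at 30.1%, 55.2% and 61.9% in C and 30.1%, 11.1% and 0% in H, at 18.9%, 47.2% and 50.4% in CC_s and 21.1%, 5.72% and 0% in HC, at 45.9% and 74.8% in CC_l and 46.2% and 74.0% in HH, and at 91% and 63.9% in CCC and 37.8%, 64.2% and 60.5% in HHC. Its weight loss difference was -26.5 ± 9.16 points (limma, Benjamini-Hochberg adjusted p = 0.199). Rasip1, which organises the endothelial lumen, was at 0%, 51.2% and 10.1% in C and 0% in H, 21.4% and 48.4% in CC_l and 57.1% and 69.9% in HH, 0%, 0% and 5.42% in CC_s and 0%, 0% and 43.4% in HC, and 33.3% and 23.9% in CCC and 24.6%, 60.3% and 78.2% in HHC. By the titles Rasip1 separated HH from CC_l, and the other groups overlapped or tied at 0%.

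Mmrn2, a matrix protein of the vessel wall, was marked by H3K4me3 in all 21 libraries, over 18.9% to 100% of its window. Its window overlaps that of Sncg, whose TSS is 676 bp away, so the 2 genes share these peaks. Mmrn1 and Vwf (von Willebrand factor) were marked in 0 of 21. The averaged fit held 30 of the 32 genes, the other two having no peak in any library. In it, 3 genes passed the threshold for HFD (Tie1, Adgrl4 and Emcn, all higher), where 0.541% of 15907 genes did, and 2 for weight loss (Adgrl4 and Pecam1, both higher), where 2.05% did. The median difference was 12.1 points over the 30 genes and -4.17 over all genes for HFD, and 13 and 1.83 for weight loss. When lists held equal numbers of peaks, 0 of the endothelial genes passed in either arm, and the number fell to 1 for HFD without any of 13 libraries and to 0 for weight loss without any CC_s library, HC replicate 3 or either CCC library. Without HHC replicate 1 it was 8 and 7.

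The same fit also gave each cohort on its own. Of the genes named for these contrasts, Robo4, Sox7 and Mmrn2 for H3K4me3, S1pr1 for H3K4me1, and Flt4 and Sox17 for H3K27me3 were chosen after their values were seen. In HH against CC_l, 5 of the 30 genes passed for H3K4me3, all higher (1.25% of all genes): Gpihbp1 by 93.2 ± 18.9 points, Robo4 by 71.2 ± 15.6, Tie1 by 52.6 ± 6.21, Pecam1 by 52.5 ± 12.1 and Adgrl4 by 46.9 ± 10.5 (limma, Benjamini-Hochberg adjusted p 0.000188 to 0.0366). By the treatment field these were -29.0, -54.0, -24.4, -28.4 and -22.1 points and 0 passed. Robo4, a receptor of vessel stability, was covered over 82.0% and 84.2% in HH and 23.9% and 0% in CC_l, 36.2% and 0% in CCC, 0%, 63.4% and 35.2% in HHC, 36.6%, 0% and 0% in H, 12.0%, 0% and 16.7% in HC and 0% in C and CC_s. In HHC against CCC, Pecam1 passed with 54.3 ± 11.1 points and Adgrl4 with 50.9 ± 9.61 (3.32% of all genes; adjusted p 0.00676 and 0.00364), and by the treatment field with 20.8 and 26.1 points neither did. In H against C, where 12.2% of all genes passed, Sox7 fell by 63.1 ± 12.0 points and Mmrn2 fell by 35.9 ± 10.0 (adjusted p 0.00673 and 0.0301). Sox7 was covered over 90.5%, 100% and 70.3% in C and 45.2%, 26.3% and 0% in H, and Mmrn2 over 67.4%, 91.7% and 77.0% in C and 43.7%, 43.9% and 40.7% in H. Over all genes the median H minus C difference was -15.5 points, and 2 of the 1946 genes past the threshold were higher. H3K4me3 peaks were narrower throughout the H lists, with median widths of 1115, 1018 and 850 bp against 1483, 1439 and 1692 bp in C. The part of this genome-wide difference in the falls of Sox7 and Mmrn2 was not tested. In HC against CC_s, 0 of the 30 passed (0% of all), with 5 at an unadjusted p below 0.05. Tie1 and Sox7 held their calls in all 21 omissions, as did Adgrl4 in HHC. The others were lost without at least 1 library of the groups compared: Robo4 without any CC_l or HH library, Gpihbp1 without CC_l replicate 1 or either HH library, Pecam1 in HHC without either CCC library, and Mmrn2 without C replicates 2 or 3 or H replicate 3. Adgrl4 in HH was lost in 6 omissions and Pecam1 in HH in 7, either HH library among them. With windows of 500 bp neither Tie1 nor Sox7 passed (adjusted p = 0.101 and 0.0953 by limma with Benjamini-Hochberg adjustment; over other settings from 3.26e-05 and from 0.00493 to 0.140), and with quantile normalization Adgrl4 in HHC did not (0.0846, from 0.000903). Each of the other calls was also lost under at least 1 setting.

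**Figure D3:**
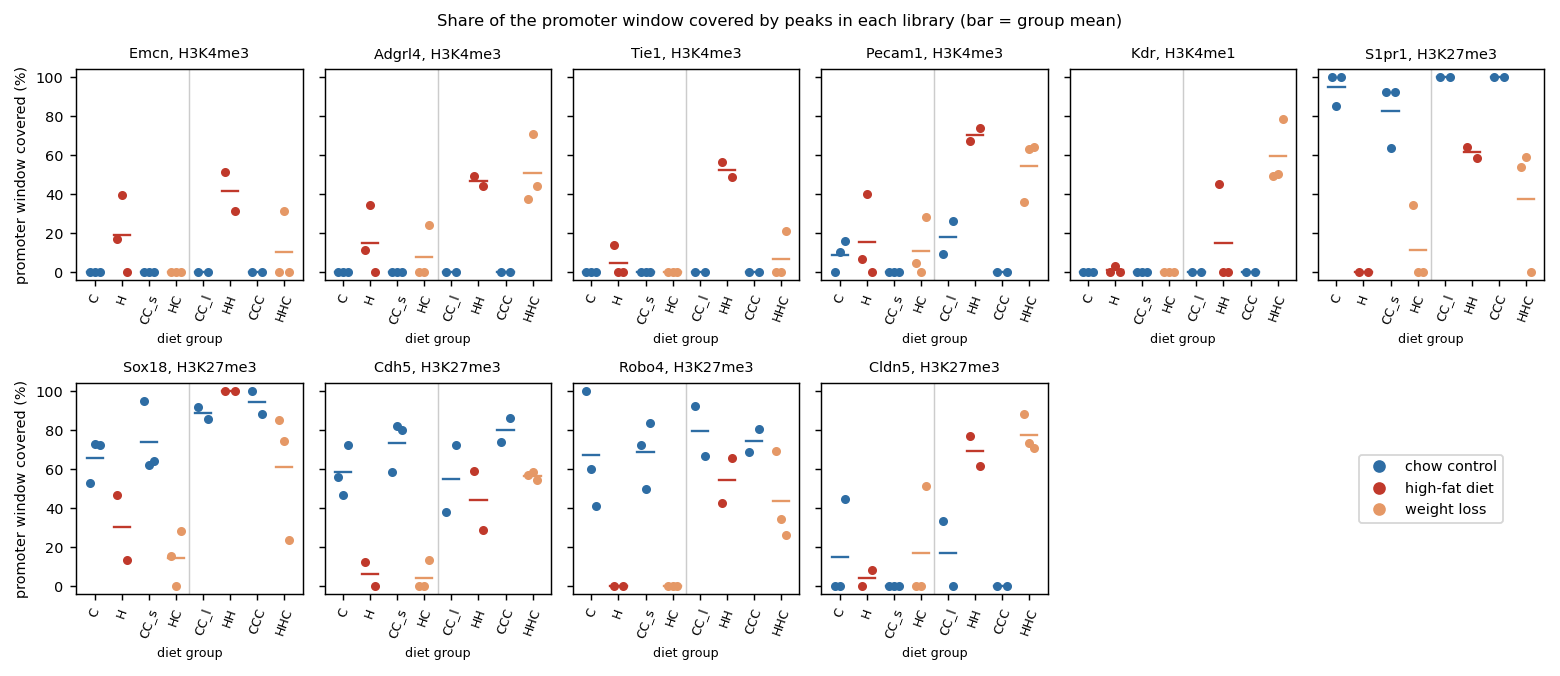
Percent of the promoter window covered by peaks (vertical axis) in each library (points) by diet group, for each gene and mark past the limma threshold in either arm, with bars at group means. H3K4me3 at Tie1, Adgrl4 and Emcn is at 0% in every chow control, and H3K27me3 at S1pr1 is at 63.9% or more in every chow control and at 0% in both H libraries.

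Markers of other cells moved with these counts. By H3K4me3, 10 macrophage genes were marked in numbers of 2, 3 and 2 in C, 8, 9 and 0 in H, 0, 0 and 1 in CC_s, 0, 1 and 5 in HC, 3 and 3 in CC_l, 8 and 8 in HH, 4 and 2 in CCC, and 8, 8 and 9 in HHC. Of 8 lymphocyte genes, 6 and 5 were marked in HH against 2 and 1 in CC_l, and 8, 7 and 7 in HHC against 1 and 1 in CCC. Of 9 mural cell genes, 6 and 7 were marked in HH against 4 and 8 in CC_l, and 6, 7 and 8 in HHC against 7 and 6 in CCC. Of 8 stromal progenitor genes, 7 and 6 were marked in HH against 5 and 5 in CC_l, and 4, 7 and 6 in HHC against 6 and 6 in CCC. Of 7 mesothelial genes, 3 and 3 were marked in HH against 3 and 2 in CC_l, and 2, 3 and 3 in HHC against 2 and 3 in CCC. By the titles, macrophage and lymphocyte counts in HH and HHC were thus above those of the controls without overlap, as the endothelial counts of HH were, and so were stromal counts in HH, whereas mural and mesothelial counts overlapped or tied. By the treatment field the macrophage counts were 2 and 3 in HH, 3 and 8 in CC_l, 4 and 8 in CCC and 8 to 9 in HHC, and the lymphocyte counts 1 and 1, 2 and 5, 1 and 6, and 7 to 8. The stromal counts were then 5 to 6 in HH and 5 to 6 in CC_l, so that they no longer separated. Among the defining genes, by the titles, Adgre1 (F4/80) had an H3K4me3 peak in 0 of 10 chow control and 8 of 11 diet libraries, Cd79a in 0 of 10 and 5 of 11, and Cd3e in 0 of 10 and 2 of 11. Other genes of these lists were often marked in controls too. Cd68 had a peak in 8 of 10 control and 8 of 11 diet libraries, Spi1 in 5 of 10 and 7 of 11, and Lck in 8 of 10 and 10 of 11. In samples of many nuclei, more nuclei of another cell type and more mark per adipocyte nucleus cannot be told apart. The part of other cells in the endothelial values was not tested.

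**Figure D4:**
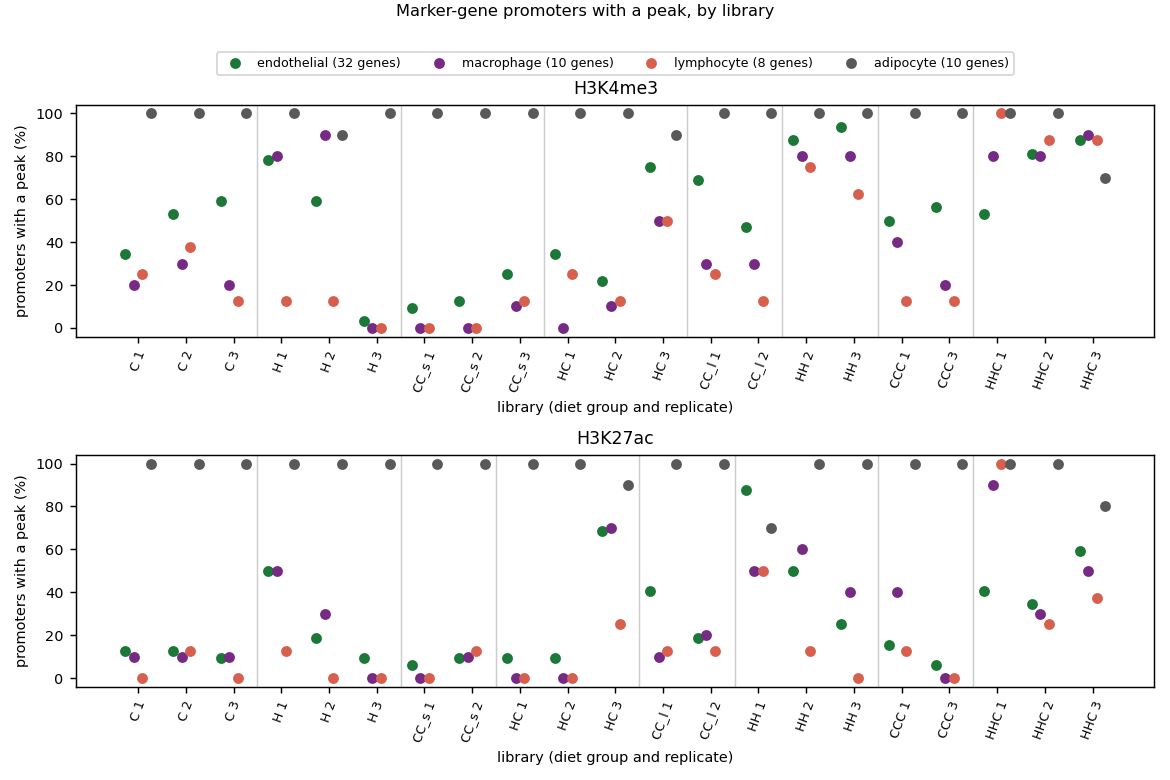
Percent of the endothelial, macrophage, lymphocyte and adipocyte genes (points, by colour) with an H3K4me3 (top) or H3K27ac (bottom) promoter peak in each library on the horizontal axis. Macrophage genes by H3K4me3 stand at 8 of 10 in both HH libraries and at 3 of 10 in both CC_l libraries, while adipocyte genes lie between 7 and 10 of 10 throughout.

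H3K27ac was found at fewer of the 32 promoters than H3K4me3. C libraries marked 4, 4 and 3 of them and H libraries 16, 6 and 3. CC_s libraries marked 2 and 3, and HC libraries 3, 3 and 22. CC_l libraries marked 13 and 6 and HH libraries 28, 16 and 8, while CCC libraries marked 5 and 2 and HHC libraries 13, 11 and 19. HHC was above CCC without overlap, and the other diet groups overlapped or touched their controls. In HHC, 44.8% ± 13 (SD, n = 3) of the genes were marked against 10.9% ± 6.63 (n = 2) in CCC, and all coding promoters stood at 52.9% ± 0.664 and 34.3% ± 23.4. The difference of 10.8 genes between HHC and CCC became 3.5 with equal numbers of peaks.

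In HHC against CCC, 3 genes gained H3K27ac (Pecam1, Cldn5 and S1pr1), where 2.32% of all genes did, and 0 lost it (0.0686%). In HC against CC_s, S1pr1 gained it (0.297% of all) and 0 lost it (0.499%). In HH against CC_l, Clec14a gained it (0.448%) and 0 lost it (0.403%). In H against C, 0 gained it (0.146%) and 0 lost it (1.94%). The HH count became 7 without HH replicate 3, 3 without CC_l replicate 1 and 2 without HH replicate 1 (1 gained and 1 lost). The HHC count became 7 without HHC replicate 2, 6 without HHC replicate 1 and 5 without CCC replicate 1, and the H count 3 without H replicate 3, 1 (lost) without H replicate 1 and 1 (gained) without H replicate 2. The S1pr1 call in HC was lost when 200 bp of overlap were asked for, since 1 HC library had 1.3% of the window covered.

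S1pr1 had H3K27ac over 100% of its window in all 3 HHC libraries and 0% in both CCC libraries. It was at 0% in C and CC_s, 47.6%, 0% and 0% in H, 9.07%, 1.3% and 58.6% in HC, 96.4% and 41.1% in CC_l, and 87.8%, 73.9% and 88.8% in HH. The chow groups of the longer cohort thus differed from each other, with CC_l marked and CCC not. Its weight loss difference was 61.5 ± 12.2 points (limma, Benjamini-Hochberg adjusted p = 0.0781). Cldn5, a tight junction protein, was at 59.6%, 71.0% and 40% in HHC, 100%, 62.6% and 0% in HH, 57.1%, 0% and 9.07% in H, and 0%, 0% and 47.4% in HC, with every chow control library at 0%. Pecam1 was at 47.4%, 34.7% and 0.786% in HHC, 50.2%, 0% and 0% in HH, 9.90%, 5.22% and 0% in H and 0%, 0% and 31.6% in HC, again with every control at 0%. In 1 of the 3 HHC libraries the Pecam1 peak thus touched only the edge of the window.

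Clec14a, a C-type lectin of sprouting endothelium, had H3K27ac over 66.1%, 54.7% and 58.5% of its window in HH. It was at 0% in every chow control and every H library, at 0%, 0% and 21.8% in HC, and at 0%, 54.8% and 64.3% in HHC. Its HFD difference was 29.9 ± 8.83 points (limma, Benjamini-Hochberg adjusted p = 0.143). Sox7, a SoxF transcription factor, was at 100%, 79.5% and 0% in C and 23.5%, 0% and 0% in H, 64.8% and 100% in CC_l and 76.7%, 0% and 0% in HH, 0% and 43.5% in CC_s and 0%, 0% and 55.5% in HC, and 100% and 0% in CCC and 0%, 81.0% and 34.5% in HHC. Sox7 coverage overlapped in every comparison, and its HFD difference was -54.4 ± 21.4 points (adjusted p = 0.253). Sox17, its arterial relative, had a peak in 1 CC_l library (38.8%) and 1 HH library (45.5%) and in no other.

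Nos3 carried H3K27ac in all 21 libraries. It covered 100%, 87.9% and 96.0% in C and 38.4%, 9% and 24.7% in H, 46.6% and 100% in CC_s and 30.2%, 44.7% and 28.7% in HC, 100% in both CC_l libraries and 41.2%, 72.6% and 100% in HH, and 100% and 70.6% in CCC and 80.7%, 100% and 65.2% in HHC. H libraries were below C libraries, and HC below CC_s, without overlap. H3K27ac peaks were narrower throughout the H and HC lists. Median widths were 801, 477 and 700 bp in H against 1765, 1648 and 1372 bp in C. They were 672, 906 and 813 bp in HC against 1232 and 1494 bp in CC_s. Over all genes the median H minus C difference was -10.4 points, and 0 of the 284 genes past the threshold were higher. The part of this genome-wide difference in the Nos3 values was not tested. The HFD difference of Nos3 was -49.7 ± 11.5 points (limma, Benjamini-Hochberg adjusted p = 0.0818). Mmrn2, with the shared Sncg window, was marked in 20 of 21, at 100%, 81.0% and 93.2% in C and 78.1%, 0% and 29% in H, 66.4% and 100% in CC_s and 45%, 58.2% and 20.3% in HC, 100% in CC_l and 94.8%, 100% and 100% in HH, and 100% and 48.9% in CCC and 100%, 100% and 90.3% in HHC. Mmrn1, Prox1 and Vwf had no H3K27ac peak in any library. By limma, 0 of the 29 fitted genes passed the adjusted threshold in either arm, where 0.0623% of 14447 genes did for HFD and 0.0277% for weight loss, and 6 and 4 of the 29 had an unadjusted p below 0.05. Median differences were 9.24 points over the 29 and -6.40 over all genes for HFD, and 11 and 7.13 for weight loss. The difference between cohorts passed for 0 of the 29 in either arm (0% of all genes for HFD and 0.0346% for weight loss). Within cohorts, Nos3 passed in H against C, where it fell by 70.6 ± 15.4 points (1.97% of all genes; limma, Benjamini-Hochberg adjusted p = 0.0328), and S1pr1 in HHC against CCC at 100 ± 17.3 points (3.9% of all; adjusted p = 0.00631). The Nos3 call was lost without any C library, H replicates 2 or 3 or either CC_l library, and the S1pr1 call held in all 21 omissions. Windows of 500 bp and quantile normalization ended both calls (adjusted p up to 0.401 for Nos3 and 0.127 for S1pr1 over the settings, from 0.0187 and 0.00292). In HC against CC_s and HH against CC_l, 0 of the 29 passed (0% and 0.173% of all genes), with 2 and 5 at an unadjusted p below 0.05.

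By H3K27ac, macrophage genes (of 10) were marked in numbers of 9, 3 and 5 in HHC against 4 and 0 in CCC, and 5, 6 and 4 in HH against 1 and 2 in CC_l. They were at 0, 0 and 7 in HC, and the HC library with 7 is replicate 3, the one with 22 of the 32 endothelial genes. Lymphocyte genes (of 8) were at 8, 2 and 3 in HHC against 1 and 0 in CCC. Adipocyte genes (of 10) were at 7 in HH replicate 1, 8 in HHC replicate 3 and 9 in HC replicate 3, and at 10 in every other library. Those 3 libraries were the ones of their groups with the most endothelial genes by H3K27ac (28, 19 and 22). With those 3 animals left out, a choice made after seeing the data, 1 gene gained and 1 lost H3K27ac in HH against CC_l. For H3K4me3 the number past the threshold in that setting was 5 for HFD and 0 for weight loss. The part of those animals in the other values was not tested.

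H3K4me1 covered few of the promoters in the shorter cohort. C libraries marked 4, 4 and 2 of the 32 genes, H libraries 9, 6 and 2, CC_s libraries 2, 2 and 4, and HC libraries 4, 2 and 5. In the longer cohort CC_l libraries marked 9 and 8 and HH libraries 18, 11 and 9, and CCC libraries marked 7 and 9 and HHC libraries 12, 10 and 24. HHC was above CCC without overlap, HH touched CC_l at 9, and the shorter cohort overlapped. All coding promoters also separated HHC from CCC, at 41.4% to 51.4% in HHC and 31.5% to 37.9% in CCC. They stood at 33.1% to 43.5% in HH and 31.1% to 31.4% in CC_l. All coding promoters showed the same step between cohorts, at 11.1% ± 2.31 (SD, n = 3) in C and 44.9% ± 5.70 (n = 3) in HHC. The part of these genome-wide differences in the endothelial counts was not tested.

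Clec14a gained H3K4me1 in HH against CC_l (1 gene; 2% of all genes) and 0 lost it (0.705%). Kdr and Sox18 gained it in HHC against CCC (3.98% of all genes) and 0 lost it (0.494%). In H against C, 0 gained (0.590%) and 0 lost it (0.320%), and in HC against CC_s, 0 gained (0.215%) and 0 lost it (0.101%). The HHC count was 5 without HHC replicate 2. The HH count was 4 without HH replicate 3 (all gained) and 4 without CC_l replicate 2 (2 gained and 2 lost). It was 2 without CC_l replicate 1 (1 gained and 1 lost). The H count was 1 without H replicate 3 and the HC count 1 without HC replicate 2. Both longer-cohort counts were 0 with equal numbers of peaks.

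Kdr, the main receptor of VEGF-A, had H3K4me1 over 49.4%, 50.6% and 78.4% of its window in HHC and 0% in both CCC libraries. It was at 45.1%, 0% and 0% in HH and at 2.97% in 1 H library, and at 0% in every other library. The HHC libraries were the 3 highest of all 22. For weight loss Kdr rose by 29.7 ± 7.4 points (limma, Benjamini-Hochberg adjusted p = 0.0285; exact permutation p = 0.1), and the difference between cohorts was 59.4 ± 14.8 points (adjusted p = 0.0357). The call was lost without any CC_s, any HC or either CCC library (adjusted p over 22 omissions 0.00189 to 0.0711). With the percent of all genes marked as a covariate the difference was 17.2 points (adjusted p = 0.384), and over other settings the adjusted p ran from 0.000479 to 0.510.

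Clec14a had H3K4me1 over 39.5%, 53.5% and 31.8% in HH and over 45.3% in 1 HHC library, and 0% in every other library. Sox18, a SoxF factor of blood and lymph vessels, was at 8.52%, 42.6% and 74.9% in HHC and 0% in CCC, 29.1% and 14.8% in CC_l and 27.5%, 42.2% and 19.6% in HH, and 12.7% in 1 H library and 0% elsewhere. HH and CC_l overlapped at Sox18. Gpihbp1 was at 74.9%, 55.9% and 0% in HH, 27.8%, 28.4% and 0% in H, 11% in 1 HC library and 10.0% in 1 HHC library, with every chow control at 0%; its HFD difference was 31.2 ± 9.43 points (limma, Benjamini-Hochberg adjusted p = 0.185). Aplnr was at 32.2%, 30.7% and 0% in HH, 29.9% in 1 H library and 36.6% in 1 HHC library, and 0% elsewhere. Both genes were therefore free of H3K4me1 peaks in all 10 chow control libraries.

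Nos3 was marked by H3K4me1 in all 22 libraries and Mmrn2 in 20, the exceptions being HC replicate 3 and HH replicate 1. Mmrn2 was at 100%, 100% and 34.8% in C, 19.5%, 32.3% and 62.1% in H, 21.8%, 54.8% and 73.7% in CC_s, 100%, 22.8% and 0% in HC, 81.5% and 100% in CC_l, 0%, 100% and 100% in HH, 100% and 100% in CCC, and 81.3%, 100% and 10.7% in HHC. Sox7 was at 46.9%, 80.4% and 0% in C, 26.2%, 0% and 0% in H, 0%, 0% and 47.8% in CC_s, 0% in HC, 43.4% and 100% in CC_l, 40.6%, 58.8% and 49.7% in HH, 76.2% and 90.9% in CCC, and 46.6%, 81.4% and 68.5% in HHC. Diet and control overlapped or tied for both genes. Prox1 had a peak in 1 library each of CC_l (44.9%), CCC (54.1%) and HHC (64.9%). Emcn, Lyve1, Mmrn1 and Tie1 had none. By limma, 1 of 28 fitted genes (Kdr) passed for weight loss, where 3.76% of 14230 genes did, and 0 of 28 for HFD (0.358% of all), with 4 of the 28 at an unadjusted p below 0.05. The difference between cohorts passed for 1 of the 28 (Kdr) in the weight loss arm (2.44% of all genes) and 0 in the HFD arm (0.0211%). Within cohorts, Kdr (59.4 ± 11 points) and Sox18 (42 ± 12.6) passed in HHC against CCC, where 11% of all genes did, and S1pr1 (44.8 ± 11.5) and Clec14a (41.6 ± 10.2) in HH against CC_l, where 1.9% did (limma, Benjamini-Hochberg adjusted p = 0.00148, 0.0392, 0.0485 and 0.0374). The Kdr call held in all 22 omissions, while the Sox18 call was lost in 14 and the other calls in 16 each. Quantile normalization ended all 4, with 0.126 for Kdr (0.313 with equal numbers of peaks, the highest, and 1.06e-05 the lowest adjusted p of its settings). S1pr1 was covered over 57.8%, 63.3% and 59.3% in HH and 0% and 30.7% in CC_l, over 97.0%, 61.2% and 97.2% in HHC and 40.7% and 71.0% in CCC, and at 0% throughout the shorter cohort. In H against C and HC against CC_s, 0 of the 28 passed (0% of all genes in both), and 0 had an unadjusted p below 0.05. The medians of the 28 genes and of all genes were 3.53 and 2.01 points for HFD and 5.07 and 5.14 for weight loss.

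H3K27me3 was found at a larger part of these genes than of coding genes as a whole in every group, from 33.3% ± 12.6 (SD, n = 3) of the 32 in HC to 64.1% ± 6.63 (n = 2) in HH, against 14.4% ± 3.81 and 23.8% ± 2.80 of all coding promoters. C libraries marked 14, 16 and 21 and H libraries 10 and 12. CC_s libraries marked 13, 14 and 16 and HC libraries 13, 6 and 13. In the longer cohort the counts were 22 and 18 in CC_l, 22 and 19 in HH, 18 and 17 in CCC, and 24, 18 and 17 in HHC. H lay below C without overlap, while all coding promoters stood at 15.2% ± 0.605 (n = 2) in H and 15.1% ± 1.87 (n = 3) in C. HC touched CC_s at 13, and the longer cohort overlapped. Peaks were narrower throughout the H and HC lists: median widths were 549 and 592 bp in H against 1242, 1261 and 1425 bp in C, and 795, 332 and 914 bp in HC against 1097, 1175 and 1170 bp in CC_s. The part of this genome-wide difference in the falls below was not tested.

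The transcription factors Erg, Sox17 and Prox1 were marked in all 20 libraries, as was the VEGF-C receptor Flt4, whereas the factors Sox7 and Lmo2 were marked in 9 and 8 of 20. Pecam1, Eng (endoglin), Tie1 and Lyve1 (the hyaluronan receptor of lymphatics) were marked in 0 of 20. In H against C, Robo4 and S1pr1 lost the mark (1.61% of all genes) and 0 gained it (1.29%). In HC against CC_s, Robo4 lost it (0.828%) and 0 gained it (0.165%). In HH against CC_l, Lmo2 lost it (0.943%) and 0 gained it (1.05%). In HHC against CCC, Sox7 and Cldn5 gained it (1.37%) and 0 lost it (0.732%). The H count was 5 without C replicate 1 and 6 with windows of 500 bp, all lost. It was 4 without C replicate 3 or H replicate 1 (1 gained and 3 lost in both). The HC count was 3 without HC replicate 1 and 2 without HC replicate 3, all lost. Without HC replicate 2 it was 2 (1 gained and 1 lost). The HH count was 4 without CC_l replicate 2 (1 gained and 3 lost) and 3 without HH replicate 3 (2 gained and 1 lost). It was 2 (1 gained and 1 lost) without HH replicate 2 or CC_l replicate 1. The HHC count was 4 without CCC replicate 1 (3 gained and 1 lost).

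S1pr1 had H3K27me3 over 100%, 85.1% and 100% of its window in C and 0% in both H libraries, and over 92.5%, 63.9% and 92.2% in CC_s and 34.5%, 0% and 0% in HC. In the longer cohort it was at 100% in both CC_l libraries and 64.1% and 58.7% in HH, and at 100% in both CCC libraries and 53.9%, 59.3% and 0% in HHC. Every diet library lay below every control of its own age in all 4 comparisons. S1pr1 fell by 66.8 ± 12.0 points for HFD (limma, Benjamini-Hochberg adjusted p = 0.0263; exact permutation p = 0.0167, the smallest that 60 rearrangements can give) and by 66.8 ± 10.8 points for weight loss (adjusted p = 0.0103; exact permutation p = 0.00500, the smallest that 200 can give). The HFD call was lost without C replicate 1 or C replicate 3 (adjusted p over 20 omissions 0.00340 to 0.0722), and the weight loss call held in all 20 (0.00296 to 0.0380). With windows of 500 bp the adjusted p was 0.240 for HFD and 0.0993 for weight loss, the highest of the settings tried, from 0.00538 and 0.00429 upwards. By the titles, the H3K4me3 coverage of S1pr1 was above controls in every HC, HH and HHC library.

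Robo4, a receptor that steadies endothelial barriers, was at 100%, 60% and 41.1% in C and 0% in both H libraries, and at 72.6%, 49.8% and 83.5% in CC_s and 0% in all 3 HC libraries. It was at 92.3% and 66.8% in CC_l, 42.9% and 65.7% in HH, 68.5% and 80.8% in CCC, and 69.2%, 34.7% and 26.4% in HHC. The shorter cohort separated fully, HH lay just below CC_l, and HHC overlapped CCC in 1 library. For weight loss Robo4 fell by 49.9 ± 11.4 points (limma, Benjamini-Hochberg adjusted p = 0.0349; exact permutation p = 0.0150), and the call was lost in 11 of 20 omissions (adjusted p 0.0281 to 0.102). It held only without C replicate 1, C replicate 3, HC replicate 1, either CC_l library, either HH library or HHC replicates 1 or 2, and over other settings the adjusted p ran from 0.0190 to 0.126. Its HFD difference was -46.2 ± 12.7 points (adjusted p = 0.105).

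Cdh5 was at 56.0%, 46.7% and 72.3% in C and 12.6% and 0% in H, at 58.6%, 82.2% and 79.8% in CC_s and 0%, 0% and 13.3% in HC, at 37.8% and 72.2% in CC_l and 59.3% and 29% in HH, and at 73.7% and 86.2% in CCC and 56.9%, 58.3% and 54.5% in HHC. All diet groups but HH lay below their controls without overlap. Cdh5 fell for weight loss by 46.3 ± 9.42 points (limma, Benjamini-Hochberg adjusted p = 0.0253; exact permutation p = 0.00500). The call was lost without CC_s replicate 2, CC_s replicate 3 or HC replicate 2 (adjusted p over 20 omissions 0.00575 to 0.0679), and over other settings the adjusted p ran from 0.0124 to 0.0628.

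Sox18 was at 52.7%, 72.7% and 72.2% in C and 46.8% and 13.5% in H, and at 95%, 62.3% and 64.0% in CC_s and 15.6%, 0% and 28.1% in HC. In the longer cohort it was at 92.0% and 85.5% in CC_l and 100% in both HH libraries, and at 100% and 88.3% in CCC and 85.4%, 74.3% and 23.7% in HHC. Both weight loss groups were below their controls, and HH was above its controls where H was below. For weight loss Sox18 fell by 46.1 ± 11.3 points (limma, Benjamini-Hochberg adjusted p = 0.0479; exact permutation p = 0.01), and 17 of 20 omissions ended the call (adjusted p 0.0258 to 0.125). It held only without HC replicate 1, HHC replicate 1 or HHC replicate 2, and over other settings the adjusted p ran from 0.0243 to 0.286.

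Cldn5 moved the other way. It was at 88.4%, 73.4% and 70.7% in HHC and 0% in both CCC libraries, at 77.1% and 61.8% in HH against 33.6% and 0% in CC_l, at 0%, 0% and 51.1% in HC against 0% in CC_s, and at 0% and 8.35% in H against 0%, 0% and 44.9% in C. The longer cohort separated in both arms and the shorter one overlapped. For weight loss Cldn5 rose by 47.3 ± 11.3 points (limma, Benjamini-Hochberg adjusted p = 0.0416; exact permutation p = 0.05), and 13 of 20 omissions ended the call (adjusted p 0.0301 to 0.101). It held only without C replicate 3, HC replicate 1, either CC_l library, either HH library or HHC replicate 2, and over other settings the adjusted p ran from 0.0176 to 0.117. Sox7 was at 95.9%, 29.4% and 38.6% in HHC and 0% in CCC, 100% and 73.3% in HH and 100% and 33.7% in CC_l, 0% and 66.9% in H, 0%, 0% and 27.4% in HC, and 0% in C and CC_s; its weight loss difference was 31.9 ± 14.5 points (adjusted p = 0.297).

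Lmo2, a LIM adaptor shared by endothelial and blood lineages, was at 0% in both HH libraries and 34.5% and 15.7% in CC_l, 0%, 29.9% and 10.5% in C and 0% in H, 0%, 0% and 10.7% in CC_s and 0%, 0% and 8.28% in HC, and 0% and 8.89% in CCC and 15.5%, 0% and 0% in HHC. Only HH and CC_l separated at Lmo2. Rasip1 had a peak in 1 HH library (38.9%) and 1 HHC library (39.0%) and in no other. By limma, 1 of 28 fitted genes passed for HFD (S1pr1), where 0.374% of 10421 genes did, and 5 for weight loss (S1pr1, Cdh5, Robo4 and Sox18 lower, and Cldn5 higher), where 1.43% did. The medians of the 28 and of all genes were -12.7 and 0 points for HFD, and -3.64 and 0 for weight loss. The difference between cohorts passed for 0 of the 28 in either arm (0% of all genes in both). Within cohorts, S1pr1 and Flt4 passed in H against C, with differences of -95.03 ± 16.17 and -67.8 ± 15.31 points (1.62% of all genes; limma, Benjamini-Hochberg adjusted p = 0.0184 and 0.0371). In HC against CC_s, S1pr1, Cdh5, Robo4 and Sox17 passed, where they fell by 71.4 ± 14.5, 69.1 ± 12.6, 68.7 ± 15.3 and 56.4 ± 13.7 points (1.59% of all; adjusted p 0.0140 to 0.0438). Flt4 was covered over 100%, 80.5% and 96.0% in C and 23.2% and 25.5% in H, and Sox17 over 100%, 90.9% and 100% in CC_s and 67.4%, 39.5% and 14.6% in HC. Both kept a peak in every library while the peak covered less of the window. Every one of these 6 calls was lost without some libraries of the groups compared, in 2 (S1pr1 in H), 8 (Flt4), 5 (S1pr1 in HC), 3 (Cdh5), 5 (Robo4) and 14 (Sox17) of 20 omissions. The replicate block ended both calls in H, and quantile normalization all 4 in HC (adjusted p over settings 0.00348 to 0.243 in H and 0.00619 to 0.519 in HC). In HH against CC_l and HHC against CCC, 0 of the 28 passed (0.297% and 0.326% of all genes), with 5 and 3 at an unadjusted p below 0.05. By H3K27me3 the other cell lists held 0 to 4 macrophage genes and 3 to 7 mural genes outside HC replicate 2, and mesothelial genes were marked at 4 to 6 of 7 in every library.

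Peaks of both H3K4me3 and H3K27me3 could be compared in 20 animals, with the same replicate number of a group taken as 1 animal. The labels do not state that outright, and 4 of the H3K4me3 libraries are those with differing labels. The number of the 32 genes with both was 18 and 20 in the HH animals and 8 and 17 in CC_l. It was 4 to 13 in C, 6 and 8 in H, 0 to 2 in CC_s, 0 to 11 in HC, 9 and 10 in CCC, and 14 to 17 in HHC. Both marks together were found at 12.6% and 14.3% of all coding promoters in the HH animals, 9.48% and 15.0% in CC_l, 8.61% and 10.5% in CCC and 11.5% to 15.2% in HHC. In the shorter cohort they were found at 3.95% to 5.76% in C, 5.21% and 5.36% in H, 1.27% to 3.37% in CC_s and 2.49% to 7.49% in HC. The part of this genome-wide difference in the endothelial counts was not tested. By the titles the HHC animals were above the CCC animals, over all coding promoters too, and the HH animals above the CC_l animals for the 32 genes. Both HH animals, CC_l replicate 2 and CCC replicate 3 are those with differing labels, so with them left out no HH animal remains, and CC_l replicate 1 (17 genes) and CCC replicate 1 (9) stand alone. Esam, an adhesion molecule of endothelial tight junctions, held both marks in 17 of 20 animals, Kdr in 15, Flt4 in 13, and Prox1, S1pr1 and Sox18 in 12. Pecam1, Eng, Tie1 and Lyve1 held both in 0. Mmrn2 held H3K4me3 alone in 19 animals and Nos3 in 16, and Ptprb held H3K27me3 alone in 15 and Sox17 in 13. A pool of many nuclei does not show whether both marks lay on the same molecules.

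**Figure D5:**
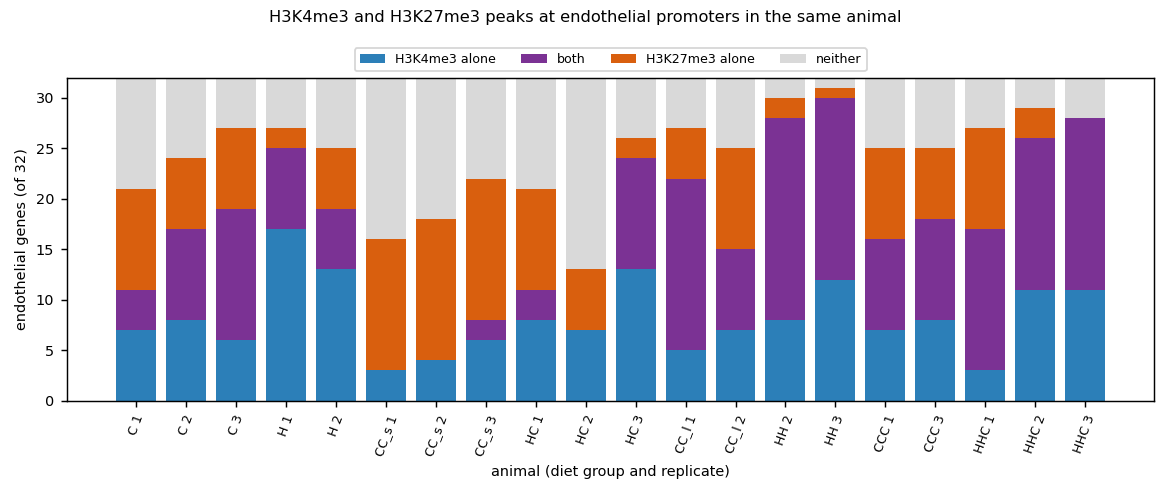
Stacked number of the 32 promoters (vertical axis) with H3K4me3 alone, both marks, H3K27me3 alone or neither in each of 20 animals (horizontal axis). The HH animals hold both marks at 18 and 20 promoters and the CC_s animals at 0 to 2. Over all coding promoters both marks stood at 12.6% and 14.3% in HH and at 1.27% to 3.37% in CC_s.

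Where the genes were marked, their H3K4me3 peaks were narrower and weaker than those of adipocyte genes in the same libraries. Over 349 marked promoters the median width of the widest peak was 1944 bp, and its total signal stood at the 25.5th percentile of promoter peaks of its library. For the 10 adipocyte genes these were 8902 bp and the 99.3rd percentile. H3K27ac peaks at the endothelial genes had a median width of 2186 bp and percentile of 48.8 (adipocyte genes 7892 bp and 99.1), and H3K4me1 peaks 2374 bp and 57.8 (adipocyte genes 4888.5 bp and 91.1). For H3K27me3 the order turned, at 2405 bp and 69.2 for the endothelial genes and 2125.5 bp and 53.2 for the adipocyte genes. These medians pool promoters of the same libraries and carry no test. For H3K4me3 the median width was 3227 bp in HH and 1485 bp in CC_l, and 3129 bp in HHC and 2479 bp in CCC (by the treatment field 2422, 2010.5, 3129 and 3179 bp), while it was 1193 bp in H and 1464 bp in C, and 1013.5 bp in HC and 1657 bp in CC_s.

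Single genes differed widely in peak strength. Nos3 stood at a median percentile of 44.1 for H3K4me3, 94.6 for H3K27ac and 92.3 for H3K4me1, and its nearest other TSS, that of Kcnh2, is 13206 bp away. Mmrn2, with Sncg beside it, stood at 94.6, 97.9 and 97.7. Esam reached 60.1 for H3K4me3, and Prox1, Sox17, Erg and Flt4 reached 95.3, 94.6, 93.5 and 92.5 for H3K27me3. Plvap, the diaphragm protein of fenestrated capillaries, stood at 1.81 for H3K4me3 in the 3 libraries that marked it.

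By role, the 10 receptors were marked by H3K4me3 in a mean of 10.0 per library in HH and 5.00 in CC_l, and 8.33 in HHC and 5.00 in CCC. The 8 junction and surface proteins were at 7.50 in HH and 4.00 in CC_l, and 6 in HHC and 3.00 in CCC. The 6 transcription factors were at 6 and 5.00 in HH and CC_l, and at 4.33 and 4.50 in HHC and CCC. The 4 secreted proteins (Vwf, Egfl7, Mmrn1 and Mmrn2) were at 2.00 in all 4 of these groups. The 4 lymphatic genes, which are also counted under other roles, were at 2.50 in HH, 2.00 in CC_l, 1.67 in HHC and 2.00 in CCC. By the treatment field the receptors were at 4 in HH, 8.5 in CC_l, 8.33 in HHC and 7.5 in CCC, and the junction proteins at 3, 6.5, 6 and 5. The transcription factors were then at 4.5, 6, 4.33 and 5, and the lymphatic genes at 2, 2.5, 1.67 and 2. The HH and CC_l order turned for each of these roles, while the secreted proteins stayed at 2 in every group. None of these role counts was tested. For H3K27me3, receptors were at 3.00 in H and 6.33 in C, and at 3.00 in HC and 6.33 in CC_s, while transcription factors were at 4.50, 4.67, 4.33 and 4.33. These were the shorter cohort. In the longer cohort Kdr, Flt1, Flt4, S1pr1, Aplnr, Robo4 and Adgrl4 were marked in every HH and CC_l library, and Tek in 1 CC_l library. In HHC, S1pr1, Aplnr and Adgrl4 were marked in 2, 1 and 2 of 3 libraries. Some junction proteins were also lower in H. Cdh5, Ptprb and Clec14a were marked in 1, 1 and 0 of 2 H libraries, against 3, 3 and 2 of 3 C libraries. Esam was marked in every C and H library.

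Further genes of vascular growth, Notch signalling and endothelial regulation (35 genes outside the 32) were marked by H3K4me3 in larger numbers: 29, 33 and 29 in C, 30, 29 and 17 in H, 31 and 31 in CC_l, and 32 and 33 in HH. For H3K4me3, Vegfd and Apln (a VEGF-family ligand and the ligand of Aplnr) lost the mark in H, Icam2 gained it and Jag2 lost it in HH (by the treatment field only Notch4 lost it), and 0 changed in HC and HHC. For H3K27ac, Angpt1 (the ligand of Tek) lost it in H, and Vegfc (the ligand of Flt4) and the ETS factor Fli1 gained it in HH. For H3K4me1, Nectin2 gained and Jag1 lost it in H, Klf4 gained and Apln lost it in HH, and Pgf and Icam2 gained it in HHC. For H3K27me3, Nrp2 and Fli1 lost it in HC and Ephb4 gained it in HH. No comparison had more than 2 of the 35 in 1 direction, and the background percents are those given for the same comparisons above.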

How the data were processed

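CUT&Tag of labelled adipocyte nuclei gave 84 peak lists, 1 per library. According to the study's methods, the authors trimmed reads with Trim Galore 0.6.6, aligned them to mm10 with Bowtie2 2.4.4, handled alignments with SAMtools 1.13, made coverage with bedtools 2.30 and called peaks on single libraries with SEACR 1.3 (stringent, threshold 0.01). The deposited lists give positions and the signal of each peak (coverage summed over its bases, and its maximum) in whole, unscaled numbers, so signal was ranked only within a library. Read depth is unknown here, lists hold no read counts, and precision rests on the number of libraries.

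Groups came from the sample titles; 4 H3K4me3 libraries carry another group in their treatment field, which was run as an alternative. The members and gene lists were chosen with earlier results of these data known. Replicates are biological replicates according to the labels. Nuclei were divided among the antibodies according to the study's methods, and the same number within a group was taken as the same animal across marks, which the labels do not state outright. Whether the cohorts were prepared together is not given in the sources used here, so cohort and preparation cannot be told apart.

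Promoters were windows of 2000 bp to either side of 41438 start sites of 21851 protein-coding genes (GENCODE basic annotation for GRCm38), joined per gene. The study's methods also remove peaks in blacklisted regions. Whether the deposited lists are before or after that step was not tested, and no such filter was applied here. Presence needed 1 bp of overlap; a gene was called gained or lost when all libraries of one group and none of the other were marked. An exact permutation test within 1 cohort cannot pass 0.05 with 2 or 3 libraries a group, whereas limma shares the spread over all 8 groups. Percent of window covered was fitted with limma 3.58.1 (R 4.3.3; trend and robust variances, group means, all libraries of a mark, genes with a peak in at least 1 library), with Benjamini-Hochberg adjustment over all fitted genes at 0.05, and called members were also tested by exact permutation within cohorts, two-sided. Contrasts were averaged over cohorts and also taken within each cohort. The comparison of cohorts was added after seeing the data. Other steps used Python 3.11.15, numpy 2.4.6 and pandas 2.3.3, and the fit was tested on simulated data. Values in every library are given for members gained or lost, past the limma threshold, or among the 3 highest or 3 lowest of a mark by share of diet libraries marked minus share of control libraries marked, summed over the 4 comparisons. Alternatives were windows of 500 bp, 200 bp of overlap, equal numbers of peaks, 1 start site per gene, quantile normalization, the percent of genes marked as a covariate, a replicate block, a coverage minimum of 5%, each library left out and, added after seeing the data, animals with incomplete adipocyte marks left out. Promoter sequences came from the RefSeq promoter table on GRCm38.p6.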

Additional observations from a re-analysis of the deposited data

Results flagged for a closer look

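With groups from the titles, the effect of the longer HFD on H3K4me3 differed from that of the shorter one at Tie1 and Gpihbp1. Over all 15907 fitted genes the longer HFD difference exceeded the shorter one by a median of 24.7 points. Of the 257 genes past the threshold, 250 were higher in this difference. The long-cohort difference (HH minus CC_l) exceeded the short-cohort one (H minus C) by 48 points of window covered at Tie1 and by 102.1 points at Gpihbp1, with limma Benjamini-Hochberg adjusted p of 0.00894 and 0.0443. Of the libraries with differing labels, 3 are in these groups by title: with groups from the treatment field the differences were -29.0 ± 17.7 and -20.0 ± 37.1 points, of the opposite sign and not past the threshold (adjusted p 0.306 and 0.731). The Tie1 call held with each library left out in turn, and the Gpihbp1 call was lost in 12 of 21 omissions. With windows of 500 bp, quantile normalization, the percent of genes marked as a covariate or a replicate block, neither call held. After weight loss, H3K4me1 at Kdr differed between the cohorts by 59.4 points (adjusted p = 0.0357), with every library of HC, CC_s and CCC at 0% and all 3 HHC libraries at 49.4% or more. This call was lost in 14 of 22 omissions, with the adjusted p between 0.000479 and 0.607 over the other settings. H3K27me3 at Sox18 went in opposite directions under HFD: it was lower by -35.7 points in H than in C and higher by 11.2 points in HH than in CC_l, with no overlap between diet and control in either cohort. The difference between the cohorts at Sox18 was 46.95 ± 24.9 points and did not pass the threshold (limma, Benjamini-Hochberg adjusted p = 0.488). These comparisons between cohorts were added after seeing the data.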

How the results depend on the processing

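Leaving out 1 library at a time changed every mean difference in members marked by less than the SD among libraries, but moved the calls. The H3K4me3 difference (H minus C) ran from -5.67 to 6.33 genes, so its sign was not fixed. Nor was that of the H3K27me3 difference (HH minus CC_l), which ran from -1.5 to 2.5 genes. Counts gained or lost ran from 1 to 5 (H), 1 to 5 (HC), 6 to 14 (HH) and 3 to 7 (HHC) for H3K4me3, from 0 to 3 (H), 1 to 7 (HH) and 3 to 7 (HHC) for H3K27ac, from 0 to 1 (H), 0 to 1 (HC), 1 to 4 (HH) and 2 to 5 (HHC) for H3K4me1, and from 3 to 5 (H), 1 to 3 (HC), 2 to 4 (HH) and 2 to 4 (HHC) for H3K27me3. Counts past the coverage threshold ran, for HFD and weight loss, from 1 to 8 and 0 to 7 (H3K4me3), 0 to 1 and 0 to 2 (H3K27ac), 0 to 1 and 0 to 5 (H3K4me1), and 0 to 6 and 1 to 7 (H3K27me3). With equal numbers of peaks, counts gained or lost were 0 (H), 0 (HC), 1 (HH) and 1 (HHC) for H3K4me3, 0 (HC), 0 (HH) and 1 (HHC) for H3K27ac, 0 (HH) and 0 (HHC) for H3K4me1 and 3 (HC) for H3K27me3. Differences in members marked were then 6 (H3K4me3, HH) and 3.5 (H3K27ac, HHC), and counts past the coverage threshold 0 and 0 (H3K4me3, HFD and weight loss), 0 (H3K4me1, weight loss) and 3 (H3K27me3, weight loss). Tie1, Adgrl4 and Emcn had no H3K4me3 peak left in that setting and could not be fitted. With windows of 500 bp, counts gained or lost were 0 (H3K27ac, HC), 2 (H3K27ac, HH), 1 (H3K4me1, HHC), and 6, 3, 2 and 1 (H3K27me3, H, HC, HH and HHC), the H3K27me3 difference in H was -11.2 genes, and counts past the threshold were 1 and 0 (H3K4me1) and 0 and 1 (H3K27me3). With 200 bp of overlap the H3K27ac HC count was 0. With 1 start site per gene the H3K27me3 HH count was 0 and the weight loss count past the threshold 2. With quantile normalization the counts past the threshold were 0 (H3K4me3, weight loss), 1 (H3K27ac, weight loss), 0 (H3K4me1, weight loss), and 0 and 3 (H3K27me3). With the percent of genes marked as a covariate they were 7 and 0 (H3K4me3) and 0 (H3K4me1, weight loss), and with a coverage minimum of 5% the H3K4me3 HFD count was 1. With groups from the treatment field, the H3K4me3 differences in members marked were -9.5 (HH) and 1.67 (HHC), the counts gained or lost were 4 (HH, all lost, where all 6 were gained) and 0 (HHC), the counts past the threshold were 0 and 0, and the HFD differences of Adgrl4 and Tie1 turned to -3.49 and -9.9 points. In HH against CC_l the differences of Adgrl4, Tie1, Robo4, Pecam1 and Gpihbp1 turned to -22.13, -24.41, -54.02, -28.35 and -28.97, and the cohort differences of Tie1 and Gpihbp1 to -29.02 and -20.03. With animals with incomplete adipocyte marks left out, a choice made after seeing the data, counts gained or lost were 2 (H3K27ac, HH, 1 of them lost) and 2 (H3K27me3, HC), and counts past the threshold 5 and 0 (H3K4me3) and 1 (H3K27me3, weight loss). The causes were not tested.

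Within cohorts and between them, counts past the threshold also moved. With 1 library left out they ran for H3K4me3 from 1 to 4 (H), 1 to 9 (HH), 1 to 9 (HHC), and between cohorts 1 to 6 (HFD) and 0 to 4 (weight loss); for H3K27ac from 0 to 2 (H), 0 to 1 (HH), 1 to 3 (HHC) and 0 to 3 (weight loss, between cohorts); for H3K4me1 from 0 to 2 (HH), 1 to 6 (HHC), and between cohorts 0 to 1 and 0 to 3; and for H3K27me3 from 0 to 5 (H), 0 to 6 (HC), 0 to 4 (HH), 0 to 2 (HHC) and 0 to 2 (HFD, between cohorts). With windows of 500 bp the H3K4me3 counts were 0 (H), 2 (HH), and between cohorts 0 and 1, H3K27ac 0 (HHC), H3K4me1 1 (HH), 1 (HHC), and between cohorts 1 and 0, and H3K27me3 1 (HC). With equal numbers of peaks they were 1, 0, 1 and 0 (H3K4me3 in H, HH, HHC and HFD between cohorts), 0 (H3K27ac, H), 0 in HH, HHC and weight loss between cohorts (H3K4me1), and 1 and 2 (H3K27me3, H and HC). With quantile normalization they were 1 (HH), 0 (HHC) and 0 (HFD between cohorts) for H3K4me3, 1 (H) and 0 (HC) for H3K27me3, and 0 for H3K27ac (H, HHC) and H3K4me1 (HH, HHC, weight loss between cohorts). With the covariate they were 0 for H3K4me3 (H, HFD between cohorts), H3K27ac (HHC) and H3K4me1 (weight loss between cohorts), 1 and 1 for H3K4me1 (HH, HHC) and 6 for H3K27me3 (H). With 1 start site per gene H3K4me1 had 1 (HH) and 0 (weight loss between cohorts), with a coverage minimum of 5% H3K27me3 had 5 (H) and 1 (HHC), and by the treatment field H3K4me3 had 0 in HH, in HHC and between cohorts for HFD. With animals with incomplete adipocyte marks left out they were 3 (H3K27ac, HHC), 1 (H3K27ac, weight loss between cohorts), 1 (H3K4me1, HHC), and 4 and 1 (H3K27me3, H and HHC).

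The replicate block gave 0 for HFD and 3 for weight loss past the threshold for H3K27me3, against 1 and 5 without it. Within and between cohorts it moved the counts to 2 (H3K4me3, HH), 0 (H3K4me3, HFD between cohorts), 0 (H3K27ac, H), 1 and 4 (H3K4me1, HH and HHC), and 0 and 2 (H3K27me3, H and HC). It gave 2 and 2 for H3K4me3, 0 and 0 for H3K27ac, and 0 and 1 for H3K4me1. Same-numbered libraries of different groups within a cohort showed no common deviation: over 108 pairs the correlation of their deviations ran from -0.434 to 0.346 with a median of 0.00225, and 21 exceeded 0.1. Deviations from means of 2 or 3 libraries are tied to each other, so this check cannot decide whether the numbers pair the samples. Over all genes, the number past the threshold ran across alternatives from 1 to 418 (H3K4me3, HFD), 39 to 555 (H3K4me3, weight loss), 2 to 416 and 0 to 943 (H3K27ac), 0 to 252 and 48 to 1888 (H3K4me1), and 0 to 1231 and 6 to 501 (H3K27me3), from main counts of 86 and 326, 9 and 4, 51 and 535, and 39 and 149.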

Other observations

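Members not described gene by gene above also differed by mark. Egfl7, a secreted matrix protein that shapes vessel tubes, had H3K4me3 in 8 of 10 chow control and 8 of 11 diet libraries and H3K27ac in 6 of 9 and 8 of 12. Esam had H3K27me3 in 10 of 10 control and 9 of 10 diet libraries and also H3K4me3 in 8 of 10 and 10 of 11. Flt1, a VEGF receptor that also acts as a decoy, had H3K27me3 in 10 of 10 and 9 of 10, with H3K4me3 in 4 of 10 and 8 of 11 and H3K27ac in 0 of 9 and 1 of 12. Tek, the angiopoietin receptor, had H3K27me3 in 1 of 10 and 0 of 10 and H3K4me3 in 1 of 10 and 7 of 11. Eng, a co-receptor for TGF-beta family ligands, had H3K4me3 in 3 of 10 and 9 of 11 and no H3K27me3 in any library. The H3K4me3 counts in this paragraph follow the titles. By the treatment field Tek was covered over 0% and 0% in HH, 16.4% and 39.8% in CC_l, and 0% and 65.4% in CCC. Eng was then at 0% and 37.5% in HH, 23.9% and 57.3% in CC_l, and 0% and 79.9% in CCC. Lyve1 was marked by H3K4me3 and by H3K27ac in 1 library each, and Vwf by H3K27me3 in 4 of 10 and 5 of 10 and by neither H3K4me3 nor H3K27ac.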
